A study of Mus musculus with 16 samples.

Results

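The cytosolic ribosomal protein genes described here are the protein-coding mouse genes whose symbol starts with Rpl or Rps and a digit, together with Rpsa, Rplp0, Rplp1 and Rplp2, leaving out pseudogene names and the Rps6k kinases. Of the 57132 genes in the deposited table, 86 coding genes matched these names, and 78 reached the minimum mean of 10 CPM (counts scaled to a common library total) over the libraries. They comprised 47 large subunit and 31 small subunit names, among them 3 paralogs (Rpl22l1, Rpl7l1 and Rps27l) that are copies of a core gene elsewhere in the genome. All 78 passed the filter on low counts, which left 19152 genes to test. The 8 matching genes under the minimum were Rps19bp1 (7.73 CPM), Rps10 (3.35 CPM), Rps27rt (2.04 CPM), Rpl36al (1.21 CPM), Rpl24 (0.812 CPM), Rpl3l (0.686 CPM), Rpl39l (0.220 CPM) and Rpl10l (0 CPM). Just inside the minimum stood Rpl13a with 27.2 normalised CPM.

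The study sequenced total RNA of whole bone marrow from Nrf2-/- mice (KO) and C57BL/6 wild-type mice (WT). Nrf2, encoded by Nfe2l2, is the transcription factor of the antioxidant response. Each genotype received BMX-001 with 5-fluorouracil (5-FU), 5-FU, BMX-001 or PBS as the control, with 2 libraries for each of the 8 groups. BMX-001, a manganese porphyrin antioxidant, was given at 0.5 mg/kg from 24 h before 5-FU and every 3 days after it. 5-FU, a pyrimidine analogue that also enters RNA and disturbs ribosomal RNA processing, was injected at 20 mg/kg. The injection was repeated on day 7, and the mice were killed for marrow on day 10. The WT mice were males aged 8 to 10 weeks, and the KO mice, bred from Nrf2+/- males and females, have no age or sex in the labels. The marrow is labelled as isolated in duplicate without a statement that the duplicates are different animals, so the p-values may measure technical spread.

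Each cytosolic ribosome is built from ribosomal RNA and a fixed set of proteins, most of them present as a single copy, so cells keep the mRNAs of these proteins at matched levels. Most of the mRNAs begin with a run of pyrimidines, the terminal oligopyrimidine tract, through which mTORC1 and Larp1 set their translation and stability. Bone marrow makes many ribosomes, and erythroid precursors are known to be sensitive to a shortage of single ribosomal proteins, as in human Diamond-Blackfan anaemia.

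The start sequences of 8 members are shown because the results below turn on them or on their paralogs. They come from RefSeq on GRCm38.p6, with 20 bases before and 30 bases from the annotated start, written 5′ to 3′, with the upstream start shown for Rps27l, which has several, and capitals mark a C followed by at least 6 further C or T letters that begins within 10 bases of the start.
Rpl28 (chr7:4792945-4792994, plus strand): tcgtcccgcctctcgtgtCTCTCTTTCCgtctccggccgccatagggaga
Rps6 (chr4:86857338-86857387, minus strand): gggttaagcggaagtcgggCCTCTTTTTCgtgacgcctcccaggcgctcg
Rps27 (chr3:90213619-90213668, minus strand): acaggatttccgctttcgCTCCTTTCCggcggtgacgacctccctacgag
Rps27l (chr9:66946066-66946115, plus strand): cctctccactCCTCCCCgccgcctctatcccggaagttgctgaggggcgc
Rpl22l1 (chr3:28805488-28805537, plus strand): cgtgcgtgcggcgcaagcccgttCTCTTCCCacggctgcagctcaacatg
Rpl7l1 (chr17:46782627-46782676, minus strand): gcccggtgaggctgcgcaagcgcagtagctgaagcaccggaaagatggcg
Rpl37a (chr1:72711240-72711289, plus strand): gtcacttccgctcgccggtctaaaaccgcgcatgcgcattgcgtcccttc
Rps16 (chr7:28350669-28350718, plus strand): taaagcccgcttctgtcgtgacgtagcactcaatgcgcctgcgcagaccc
Searching the gene's own strand, this run of 7 letters was found at 28 of the 58 members with a start in the table (48.3%), against 3821 of 27025 genes of all kinds (14.1%). The match describes letters near an annotated start, and no match says only that the run was not in that window. In Rps27l the unbroken C and T letters reach further upstream than the capitals, to outside the 10 bases. It is counted among the 28 by the part within them.

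Library totals ran from 27305707 to 39909188 counts, and the members held 2.88% to 3.86% of them. Nfe2l2 averaged 8.97 ± 3.32 normalised CPM in the KO libraries and 116 ± 6.17 in the WT libraries (SD, n = 8 each), with no overlap. KO BMX-001 replicate 1 stood apart from the other 15 libraries on the leading principal component (30.9% of variance), so values are also given from a fit without it, called the 15-library fit. Levels below are CPM after TMM normalisation, which puts libraries on a common scale, and fold changes are log2 values with standard error (SE) from edgeR's quasi-likelihood fit. A gene was called at an adjusted p (Benjamini-Hochberg, over all genes tested) under 0.05. In whole marrow, fewer cells of a type and less RNA per cell cannot be told apart.

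The members lay near the top of the expression range, with a median of 409 normalised CPM and a median percentile of 98.3 among the genes tested. Their transcripts were short, with a median of 819 bases against 2347 bases for all genes tested, and 76 of the 78 were below that median. GC content was 51.5% at the median of members and 49.6% at that of genes tested. Per kilobase of transcript the most abundant members were Rps12 (1191 CPM per kb), Rpl41 (1005), Rps29 (933), Rps3a1 (914) and Rps24 (902). Without adjustment for length, Rplp0, the anchor of the ribosome's lateral stalk, had the highest mean level, 1198 CPM. The 5 lowest were Rpl13a (27.2 CPM), Rps27l (42.7 CPM), Rpl22l1 (45.5 CPM), Rpl7l1 (72.7 CPM) and Rpl36 (106 CPM). Rpl13a, a large subunit protein that in human monocytes also silences translation of inflammatory mRNAs, shares 35.4% of its exonic bases with an overlapping gene on the same strand, so its low count is uncertain. The same holds for Rps10 (20.6%), Rpl24 (47.0%) and Rpl36al (24.5%), which fell under the minimum. With overlap on either strand counted, the largest shares among the members were those of Rpl35 (66.2%) and Rpl23a (62.3%). The strand setting of the counting is not given, so their counts are uncertain as well. Pseudogenes of the family, 300 by name, held 79.5 to 109.5 CPM per library in sum, against 26333 CPM or more for the members.

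Summed over the 78 genes, the level was 32517 and 31594 CPM in KO mice given both drugs, 38337 and 32221 after 5-FU in KO, 26333 and 32455 after BMX-001 in KO, and 34248 and 36728 in KO PBS controls. In WT mice it was 36162 and 32542 CPM after both drugs, 30900 and 29775 after 5-FU, 33962 and 37494 after BMX-001, and 36846 and 37217 in PBS controls. The lowest value belonged to the library that stood apart, and the WT 5-FU pair lay below every library outside KO BMX-001. Leaving out KO BMX-001, WT 5-FU had the lowest group mean for 65 of the 78 members and WT PBS the highest for 55.

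**Figure D1:**
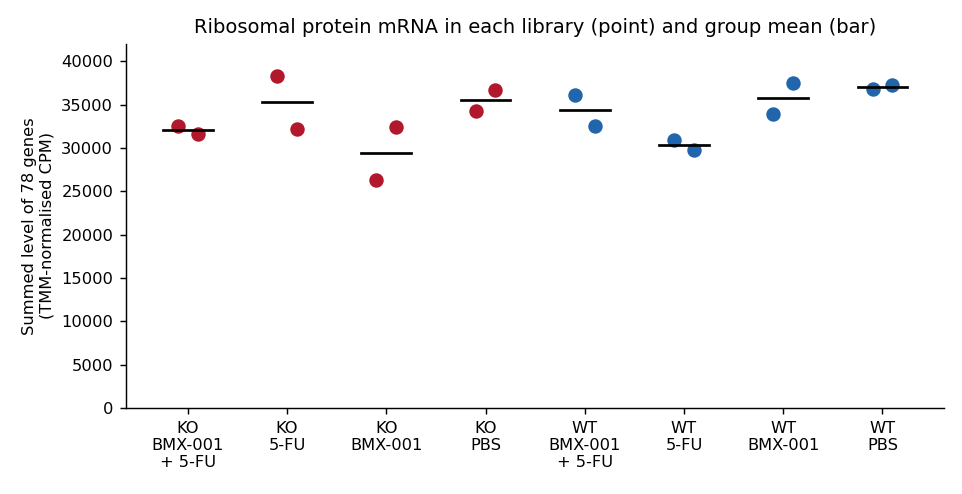
Summed level of the 78 ribosomal protein genes (TMM-normalised CPM, axis from 0) in each of 16 libraries, with KO in red and WT in blue, points for libraries and bars for group means. The WT 5-FU libraries (30900 and 29775 CPM) lie below the WT PBS libraries (36846 and 37217 CPM), whereas KO 5-FU (38337 and 32221 CPM) and KO PBS (34248 and 36728 CPM) overlap.

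In WT marrow, nearly all ribosomal protein mRNAs had lower levels after 5-FU than after PBS. The median log2 fold change of the 78 genes was -0.30, against -0.0010 for all genes tested, and 76 of the 78 were negative. Both 5-FU libraries lay below both PBS libraries for 75 members, where 27.5% of all genes did so in that direction, and members of a library move together, so these are not 75 separate observations. The large subunit median was -0.30 and the small subunit median -0.31. In the fit of all 16 libraries 0 of the 78 were called, as 1 of 19152 genes was (0.00522%). At an unadjusted p under 0.05 stood 39 members and 14.4% of all genes, the smallest adjusted p of a member was 0.141, and DESeq2 called 5 members (6.41%), beside 3.22% of the genes to which it gave an adjusted p.

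Rpl37a, a large subunit protein, had 293 and 272 CPM after 5-FU in WT, against 378 and 376 CPM in WT PBS. Both treated libraries were well below both controls (log2 fold change -0.42, SE 0.11, edgeR adjusted p = 0.141). Rps16, of the small subunit head, had 382 and 352 CPM after 5-FU in WT, against 488.5 and 467 CPM in WT PBS, again without overlap (-0.38, SE 0.12, edgeR adjusted p = 0.186). Rps3, which lines the mRNA entry channel, had 521 and 498 CPM after 5-FU in WT, against 652 and 667 CPM in WT PBS. Its groups were as clearly apart (-0.37, SE 0.12, edgeR adjusted p = 0.192). These 3 had the smallest p of the members.

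With the library that stood apart left out, 26 members fell after 5-FU in WT and 0 rose, beside 3.74% of genes lower and 3.13% higher. The fold changes were nearly those of the full fit (median -0.30), and the SE of a typical member was 0.10 in place of 0.14. Leaving out the other KO BMX-001 library in its place gave 24 calls, beside 6.63% of all genes; either way KO BMX-001 holds a single library, so its spread no longer enters the estimate shared by all groups. The 26 calls also rest on both WT pairs: without WT PBS replicate 1 as well, 10 members were called, beside 8.2% of all genes. Without WT PBS replicate 2, WT 5-FU replicate 1 or WT 5-FU replicate 2 as well, 0 members were called, beside 1.17%, 0.835% and 0.0459% of all genes in that order. Among the calls with the most negative fold changes were Rps15, Rpl36 and Rpl37a, and those nearest to 0 were Rps19, Rps12, Rps6 and Rps23.

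Rps15, a small subunit protein near the decoding centre, had 372 and 334 CPM after 5-FU in WT, against 491.5 and 470 CPM in WT PBS (15-library log2 fold change -0.45, SE 0.11, edgeR adjusted p = 0.0229). Rpl36 had 99.4 and 87.1 CPM after 5-FU in WT, against 123 and 127 CPM in WT PBS (-0.42, SE 0.12, edgeR adjusted p = 0.0449). Neither gene's groups overlapped. Rps19, the protein most often mutated in human Diamond-Blackfan anaemia, had 282 and 273 CPM after 5-FU in WT, against 346 and 343 CPM in WT PBS (-0.31, SE 0.09, edgeR adjusted p = 0.0422). Rps6, the substrate of the S6 kinases downstream of mTORC1, had 542 and 533 CPM after 5-FU in WT, against 666 and 681 CPM in WT PBS (-0.33, SE 0.09, edgeR adjusted p = 0.0392). Rps19 and Rps6 were lower in both 5-FU libraries than in either control.

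The stalk proteins, which recruit the translational GTPases, had fold changes near the members' median. Rplp0 had 1103 and 1027 CPM after 5-FU in WT, against 1352 and 1316 CPM in WT PBS (-0.32, SE 0.20, edgeR adjusted p = 0.484). Rplp1 had 377 and 336 CPM after 5-FU in WT, against 461 and 430 CPM in WT PBS (-0.32, SE 0.16, edgeR adjusted p = 0.370). Rplp2 had 224 and 200 CPM after 5-FU in WT, against 287 and 262 CPM in WT PBS (-0.37, SE 0.15, edgeR adjusted p = 0.282). None of the 3 overlapped between the groups, and Rplp2 alone of them was called in the 15-library fit (-0.37, SE 0.09, edgeR adjusted p = 0.0276).

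By the pyrimidine run, the 58 members with an annotated start had similar medians. The 28 with it had a median log2 fold change of -0.31 (range -0.40 to 0.19) after 5-FU in WT, and the 30 without it -0.28 (range -0.44 to 0.06). In KO the medians were 0.0066 with it and -0.0030 without it.

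In KO marrow the same comparison centred on 0. The median log2 fold change of the 78 genes after 5-FU was 0.00042, against 0.02 for all genes, with 39 members positive and 39 negative. Both 5-FU libraries were above both PBS libraries for 2 members (21.6% of all genes), and below them for 0 (21.4% of all genes). None of the 78 was called, beside 87 of all genes (0.454%). An unadjusted p under 0.05 was seen for 1 member and for 9.42% of all genes. DESeq2 called 0 members, beside 2.25% of the genes to which it gave an adjusted p. The smallest p belonged to Rpl22l1, Rpl13a and Rps27l. Rpl37a had 362 and 315 CPM after 5-FU in KO, against 333 and 387 CPM in KO PBS, so the pairs interleave. Rps19 had 344 and 299.6 CPM after 5-FU in KO, against 297 and 319 CPM in KO PBS. The KO 5-FU pair was itself spread, and the median was -0.14 without its replicate 1 and 0.12 without its replicate 2. Scaled by library totals only, in place of TMM, the median of all genes shifted to 0.12 in WT and 0.21 in KO. Relative to that shift the members stood at -0.30 in WT and -0.03 in KO.

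The difference between the genotypes in the response to 5-FU was tested as an interaction. All 78 members had a positive interaction (median 0.30, against 0.02 over all genes), meaning a lower fold change in WT than in KO. None was called by edgeR (0 of 19152 genes, 0%) or by DESeq2 (0.71% of the genes to which it gave an adjusted p). In edgeR 6 had an unadjusted p under 0.05 (5.69% of all genes), and the smallest adjusted p of a member was 0.846. In the 15-library fit the median was 0.30, 36 members and 11.8% of all genes had an unadjusted p under 0.05, and again 0 were called (smallest adjusted p 0.305). Rps19 had the smallest p (interaction 0.38, SE 0.15, 95% interval 0.05 to 0.70, edgeR adjusted p = 0.846). Rpl36 (0.45, SE 0.19) and Rpl32 (0.40, SE 0.17), both large subunit proteins, came next with the same adjusted p. No member's difference between the genotypes passed the test, and the median interaction was 0.16 without KO 5-FU replicate 1 and 0.43 without KO 5-FU replicate 2.

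**Figure D2:**
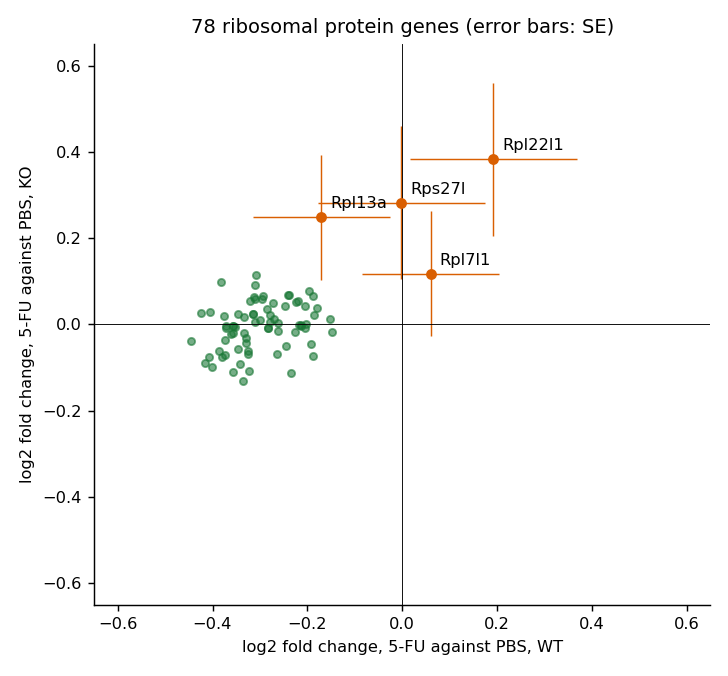
Log2 fold change after 5-FU against PBS for each of the 78 genes, in WT on the horizontal axis and in KO on the vertical axis, with error bars (SE) on the 4 labelled genes. Most genes form a compact cloud around -0.30 in WT and 0 in KO, and the paralogs Rpl22l1, Rps27l and Rpl7l1 lie to the right of it.

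The 3 paralogs had fold changes near or above 0 after 5-FU in WT, and these values are descriptions, since none passed the test. Fold changes in this comparison fell with GC content among all genes (Spearman's rho -0.38). GC content was 39.8% in Rpl22l1, 43.9% in Rps27l and 49.6% in Rpl7l1, against a median of 51.5% for members. With length and GC trends removed, the highest fold change of a member was 0.12, against 0.19 as fitted. The part of GC content in the paralogs' values was not tested. Rpl22l1, the paralog of Rpl22 whose level rises in mice when Rpl22 is lost, had 48.0 and 47.4 CPM after 5-FU in WT, against 37.1 and 46.4 CPM in WT PBS (log2 fold change 0.19, SE 0.18, edgeR adjusted p = 0.664). In KO it had 52.6 and 47.0 CPM after 5-FU, against 37.9 and 38.5 CPM in PBS (0.38, SE 0.18, edgeR adjusted p = 0.529). The 5-FU libraries were the higher ones in both genotypes, without overlap. Its partner Rpl22, an RNA-binding large subunit protein, had 152 and 146 CPM after 5-FU in WT, against 167 and 173 CPM in WT PBS (-0.19, SE 0.10, edgeR adjusted p = 0.431).

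Rps27l, a target of p53, had 44.3 and 41.9 CPM after 5-FU in WT, against 42.9 and 43.4 CPM in WT PBS, and the pairs interleave (-0.0018, SE 0.18, edgeR adjusted p = 0.997). In KO it had 55.8 and 40.2 CPM after 5-FU, against 42.2 and 36.7 CPM in PBS (0.28, SE 0.18, edgeR adjusted p = 0.691), again with overlap. Its core counterpart Rps27 had 265 and 276 CPM after 5-FU in WT, against 321 and 349 CPM in WT PBS, without overlap (-0.31, SE 0.11, edgeR adjusted p = 0.230). Rpl7l1, a nucleolar relative of Rpl7 that takes part in large subunit assembly, had 77.2 and 75.1 CPM after 5-FU in WT, against 76.9 and 69.2 CPM in WT PBS (0.06, SE 0.14, edgeR adjusted p = 0.894). The low-expressed Rpl13a had 32.6 and 26.1 CPM after 5-FU in KO, against 23.6 and 25.8 CPM in KO PBS (0.25, SE 0.14, edgeR adjusted p = 0.656), and its overlap with a neighbour applies to these values. Averaged over genotype and BMX-001, with length and GC trends removed and the library that stood apart left out, Rps27l was the only member called higher after 5-FU (0.23, SE 0.06, edgeR adjusted p = 0.0296), beside 2.11% of genes higher. In the 15-library fit without that step it was not called (0.21, SE 0.08, edgeR adjusted p = 0.127).

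**Figure D3:**
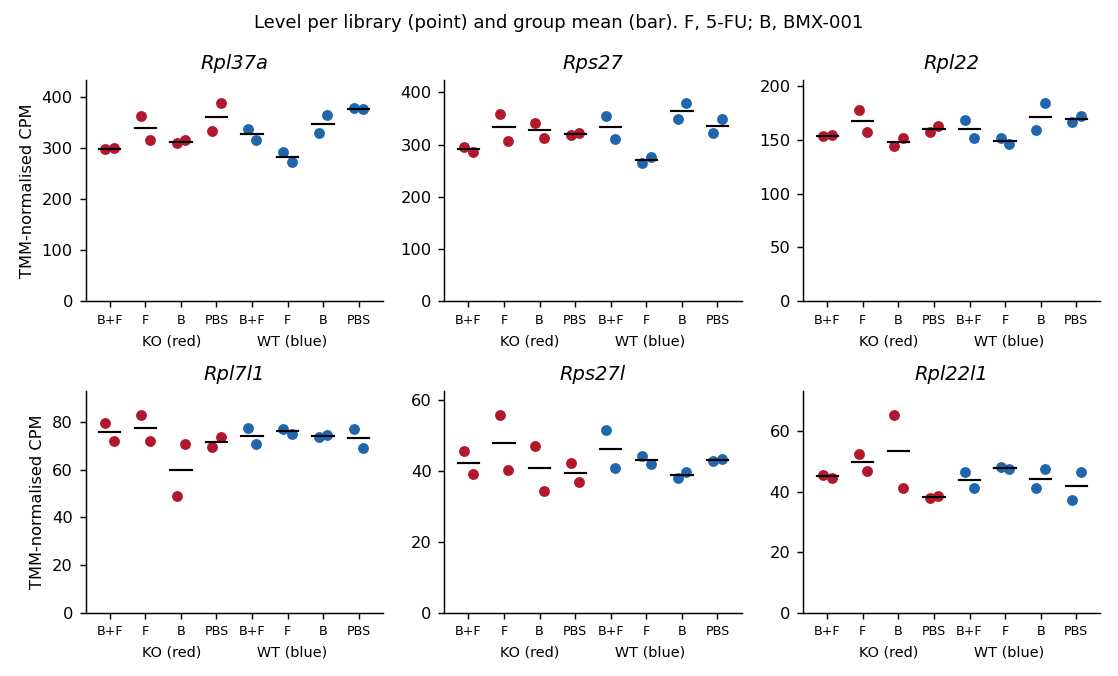
Levels (TMM-normalised CPM, axes from 0) of 3 core genes (Rpl37a, Rps27 and Rpl22) and the 3 paralogs (Rpl7l1, Rps27l and Rpl22l1) in every library, KO in red and WT in blue, with bars for group means. The core genes have low points in WT 5-FU (272 and 293 CPM for Rpl37a), whereas Rpl22l1 there (48.0 and 47.4 CPM) lies above WT PBS (37.1 and 46.4 CPM).

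Fold changes after 5-FU in WT followed transcript GC content and, less steeply, length, among genes of all kinds. Genes other than the members had a median of 0.30 at a GC content up to 42% (2175 genes) and of -0.16 above 54% (4777 genes). By length, other genes of 600 to 1000 bases had a median of -0.11 and those over 4000 bases 0.10. The members repeated the GC gradient among themselves, with -0.21 at 42 to 46% (5 genes) and -0.35 above 54% (23 genes). Spearman's rho of fold change with GC content was -0.38 over 18227 genes and -0.51 over the 78 members, a description across genes that share libraries. In KO it was -0.15 over all genes and 0.0072 over the members.

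A fit that removes length and GC trends in each library by splines brought the members' median after 5-FU in WT to -0.09, against 0.0098 for all genes. Of the members 68 were still negative, and 0 were called beside 0 of all genes (0%). An unadjusted p under 0.05 was seen for 10 members and for 10.4% of all genes. The median interaction with genotype was 0.10. The trends were fitted on genes above a minimum mean level and applied to every gene with a length and GC value. Low-level genes thus lay outside that fit. Of the other genes up to 1000 bases, 1022 were above the minimum. With all genes counted, the members remained below other genes of their own length class after this step. Those up to 600 bases had a median of -0.07 (20 members) and other genes of that length 0.21 (1585 genes). From 600 to 1000 bases the medians were -0.09 (35 members) and 0.08 (1527 other genes). By level the picture differed. Among genes over 8 on the log2 CPM scale, the median after this step was -0.11 for 59 members and -0.11 for 582 other genes, whereas as fitted it was -0.31 for the members and -0.12 for the others. The part of length, GC content and level in the values of the members was not tested.

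With these trends removed and 15 libraries, 1 member was called. Rps20, a small subunit protein with a long (3706 bases) transcript of low GC content (41.3%) in the annotation, had 348 and 327 CPM after 5-FU in WT, against 405 and 406 CPM in WT PBS. Its log2 fold change was -0.26 (SE 0.11, edgeR adjusted p = 0.296) as fitted with 16 libraries. With trends removed and 15 libraries it was -0.48 (SE 0.10, edgeR adjusted p = 0.0327), beside 0.447% of genes lower. Other genes with a GC content up to 42% had a median of 0.30 as fitted.

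**Figure D4:**
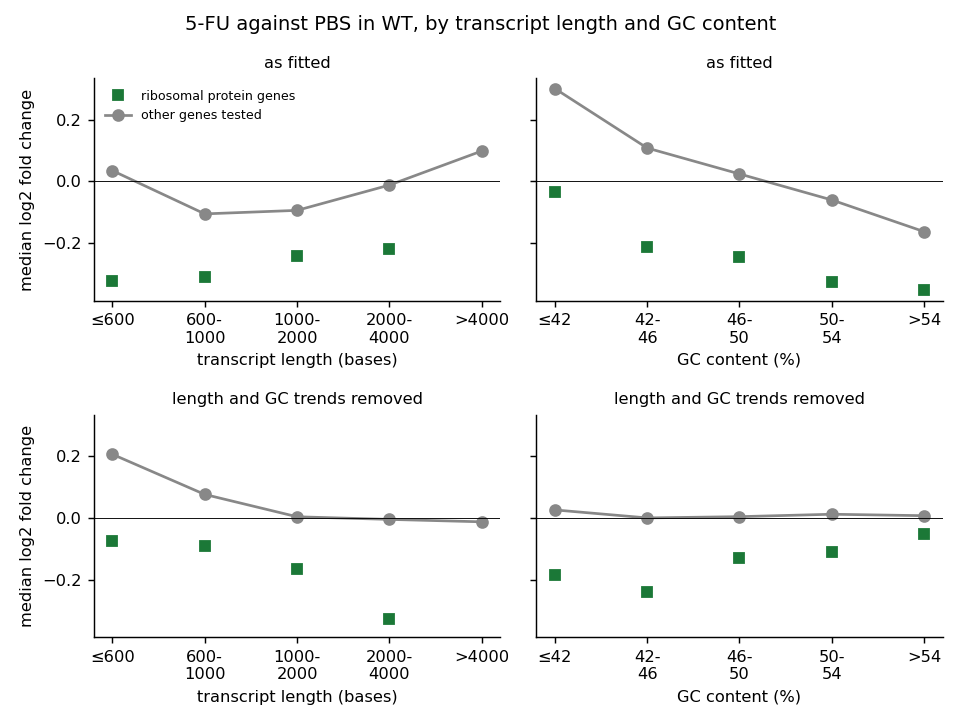
Median log2 fold change after 5-FU against PBS in WT by transcript length (left) and GC content (right), for ribosomal protein genes (squares) and other genes tested (circles), as fitted (top) and with length and GC trends removed (bottom). As fitted, other genes run from 0.30 in the lowest GC class to -0.16 in the highest, and the members lie below them in every class. With the trends removed the members' squares stay below the circles, which include low-level genes left out when the trends were fitted.

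Other values moved with the WT 5-FU pair. The summed level of 11 matched erythroid markers of 12 listed, none at 0, was 47956 and 48590 CPM after 5-FU in WT, against 61476 and 80279 CPM in WT PBS. It was also lower in KO, with 63126 and 55796 CPM after 5-FU against 80446 and 91934 CPM in PBS, where the members' median fold change was 0.00042. Neutrophil markers (9 of 9 matched, none at 0) summed to 23111 and 25678 CPM after 5-FU in WT, against 27473 and 32920 CPM in WT PBS, and to 31459 and 28009 CPM after 5-FU in KO, against 34939 and 34678 CPM in KO PBS. Monocyte and macrophage markers (8 of 8) summed to 778 and 780.2 CPM after 5-FU in WT, against 881 and 861 CPM in WT PBS, and B cell markers (10 of 10) to 936 and 969 CPM after 5-FU in WT, against 1217 and 1090 CPM in WT PBS. Transcripts of the mitochondrial genome were higher, with 10242 and 9885 CPM after 5-FU in WT, against 5677 and 8913 CPM in WT PBS. In KO they were also higher, with 8017 and 9063 CPM after 5-FU, against 7346 and 7171 CPM in PBS. Monocyte and macrophage markers were lower in KO as well, with 830 and 832 CPM after 5-FU, against 1038 and 961 CPM in PBS. B cell markers interleaved in KO, with 651 and 969 CPM after 5-FU, against 990 and 689 CPM in PBS. The part of these markers and transcripts in the ribosomal protein levels was not tested.

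Averaged over genotype and BMX-001, 5-FU was compared with no 5-FU over 8 libraries each. The members' median was -0.07, against 0.01 for all genes, with 64 of 78 negative. None was called in the 16-library fit, beside 565 of all genes (2.95%). An unadjusted p under 0.05 was seen for 9 members and for 18.1% of all genes, and DESeq2 called 1 member, beside 7.97% of genes. Rpl37a (-0.16, SE 0.06), Rpl34 (-0.18, SE 0.06) and Rps28 (-0.15, SE 0.06) had the smallest p, with edgeR adjusted p-values of 0.148, 0.162 and 0.190. In the 15-library fit 4 members fell, beside 5.81% of genes lower. Of these, 3 were Rpl28 (-0.20), Rps29 (-0.19) and Rpl37a (-0.17), all structural proteins, with edgeR adjusted p-values of 0.0302 to 0.046.

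BMX-001 given with 5-FU was set against 5-FU alone. In WT the members' median was 0.16, against -0.00049 for all genes, with 76 of 78 positive and 62 higher in both libraries of the combination than in both of 5-FU alone (22.3% of all genes). None was called by edgeR or by DESeq2 (0 of 19152 genes, 0%, in each). An unadjusted p under 0.05 was seen for 6 members and for 3.93% of all genes. Rps14, the gene lost in the human 5q- syndrome, had 596 and 522 CPM after both drugs in WT, against 420 and 403 CPM after 5-FU in WT (log2 fold change 0.44, SE 0.14, edgeR adjusted p = 0.998). Rps27 had 355 and 311 CPM after both drugs in WT, against 265 and 276 CPM after 5-FU (0.30, SE 0.11, edgeR adjusted p = 0.998). Rpl9 had 692 and 573 CPM after both drugs in WT, against 479 and 516 CPM after 5-FU (0.35, SE 0.13, edgeR adjusted p = 0.998). The 3 pairs did not overlap. Other values moved with this contrast without overlap, and their part was not tested. Erythroid markers summed to 67491 and 62233 CPM after both drugs in WT, against 47956 and 48590 CPM after 5-FU. Transcripts of the mitochondrial genome summed to 6405 and 7827 CPM after both drugs in WT, against 10242 and 9885 CPM after 5-FU, and Malat1 had 3553 and 3796 CPM after both drugs, against 5345 and 4795 CPM after 5-FU. Without WT BMX-001 with 5-FU replicate 1, the higher library, the median was 0.09. The WT 5-FU libraries also serve in the comparison with PBS, so both results rest on them.

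In KO the combination had the opposite sign relative to 5-FU, with a median of -0.14, against -0.0044 for all genes, and all 78 negative. Both libraries were lower than both of 5-FU alone for 25 members (16% of all genes). None was called by edgeR (0 of 19152 genes, 0%) or by DESeq2 (0.0313% of all genes). An unadjusted p under 0.05 was seen for 0 members and for 2.61% of all genes. Rps27 had 296 and 286 CPM after both drugs in KO, against 359 and 307 CPM after 5-FU in KO (-0.20, SE 0.11, edgeR adjusted p = 1). Rps13 (-0.19, SE 0.11) and Rpl37a (-0.18, SE 0.11) were similar. Without KO 5-FU replicate 1 the median was -0.01. The difference between KO and WT in this contrast was not tested. With length and GC trends removed, the medians were -0.05 in KO and 0.04 in WT. Erythroid markers in KO summed to 68505 and 63384 CPM after both drugs, against 63126 and 55796 CPM after 5-FU. Transcripts of the mitochondrial genome in KO summed to 10041 and 9280 CPM after both drugs, against 8017 and 9063 CPM after 5-FU. Both sums were thus higher without overlap. Malat1 in KO overlapped, with 3485.5 and 4346 CPM after both drugs, against 2549 and 3813 CPM after 5-FU. The part of these values was not tested.

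For BMX-001 alone in KO the member fold changes were spread widely, and 1 library held the lowest values. The median was -0.23, against 0.03 for all genes, with members from -0.66 to 0.48, and 54 were lower without overlap (25.4% of all genes). None was called, beside 1 of all genes (0.00522%); 29 had an unadjusted p under 0.05 (30.6% of all genes), and DESeq2 called 1, beside 10.9% of genes. Rpl4, a core large subunit protein that lines the exit tunnel, had 472 and 1092 CPM after BMX-001 in KO, against 1201 and 1259 CPM in KO PBS. Rps2 had 310 and 719 CPM after BMX-001 in KO, against 745 and 883 CPM in KO PBS. In both, replicate 1 was far below all other libraries.

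Rpl28, Rpl23 and Rpl8 completed the 5 members with the widest range of group means, 0.69 to 0.85 on the log2 scale. Without the KO BMX-001 group the range of these 5 was 0.25 to 0.41. Rpl23 had the smallest p (-0.63, SE 0.22, edgeR adjusted p = 0.104), followed by Rpl14 (-0.43, SE 0.16, edgeR adjusted p = 0.109) and Rpl6 (-0.39, SE 0.14, edgeR adjusted p = 0.110). Of the 78 members, 67 were negative and 11 positive in this comparison. Rpl22l1 was among the positive ones (0.48, SE 0.18, edgeR adjusted p = 0.113). It had 65.4 and 41.3 CPM after BMX-001 in KO, against 37.9 and 38.5 CPM in KO PBS. Some core members were also above both KO PBS libraries in KO BMX-001 replicate 1. Among them were Rps24 (803 CPM, against 697 and 689 CPM) and Rps12 (727 CPM, against 610 and 686 CPM). The same library had 12210 CPM of the nuclear RNA Malat1, where the other 15 had 2549 to 5345 CPM. In the 15-library fit the members' median for BMX-001 in KO was -0.13, with 0 calls.

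In WT, BMX-001 alone gave a median of -0.07, against -0.0029 for all genes, with 60 of 78 negative. Without overlap, 18 members were lower (20.7% of all genes) and 2 higher (19.9%). None was called by edgeR (0 of 19152 genes, 0%) or by DESeq2 (0.00522% of all genes). An unadjusted p under 0.05 was seen for 0 members and for 5.1% of all genes. Rps28 (-0.14, SE 0.11), Rpl36 (-0.16, SE 0.14) and Rps14 (0.16, SE 0.14) had the smallest p, each with an edgeR adjusted p of 0.997.

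**Figure D5:**
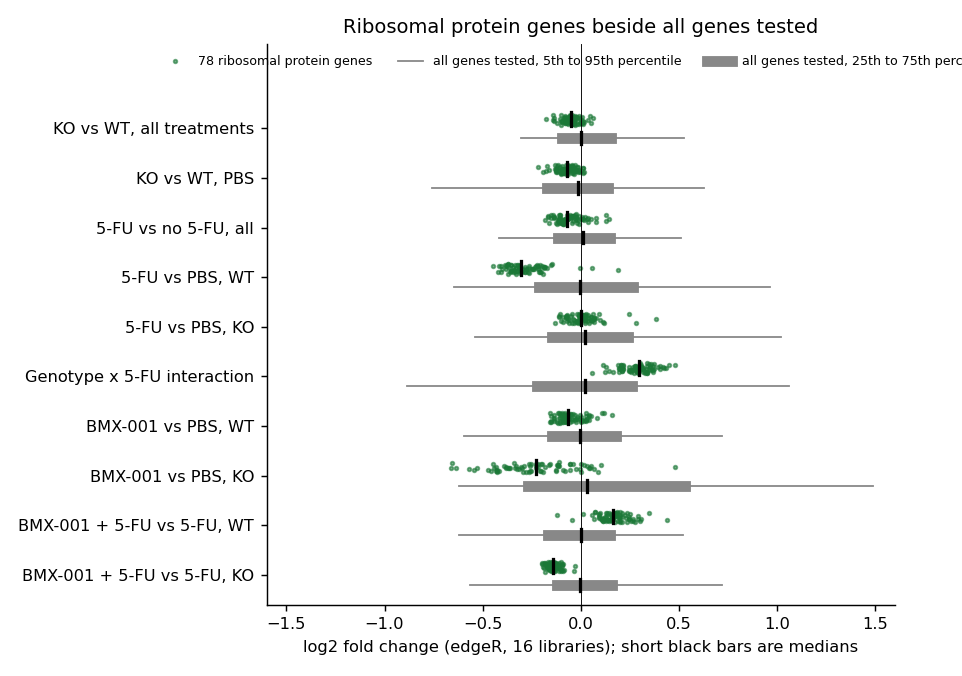
Log2 fold changes of the 78 genes (green points, black bar at their median) above the spread of all 19152 genes tested (grey, 5th to 95th and 25th to 75th percentile, black bar at the median) in 10 comparisons. The members sit as a tight group below 0 after 5-FU in WT (median -0.30) and above 0 in the interaction (0.30), and are spread out for BMX-001 in KO.

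Between KO and WT marrow the members' fold changes were small. Averaged over the 4 treatments the median was -0.05, against 0.0038 for all genes, with 67 of 78 negative, and 0 members were called, beside 34 of all genes (0.178%). In PBS the median was -0.07, against -0.01 for all genes, with 74 of 78 negative, 29 lower without overlap (18.4% of all genes) and 0 called, beside 5 of all genes (0.0261%). In both comparisons 0 members had an unadjusted p under 0.05, beside 12.7% of all genes over the treatments and 4.44% in PBS. DESeq2 called 0 members in both, beside 2.16% of genes with an adjusted p over the treatments and 0.178% in PBS. Rpl36 had the smallest p in PBS, with 101.5 and 114 CPM in KO, against 123 and 127 CPM in WT (-0.22, SE 0.14, edgeR adjusted p = 1). Rpl32 (-0.18, SE 0.12) and Rps19 (-0.16, SE 0.11) followed. Over the treatments the smallest p belonged to Rpl14 (-0.14, SE 0.08), Rps3a1 (-0.10, SE 0.06) and Rpl30 (-0.07, SE 0.05), with edgeR adjusted p-values of 0.467 to 0.557. With length and GC trends removed and 15 libraries, Rpl36 (-0.18, SE 0.04, edgeR adjusted p = 0.0479) and Rpl38 (-0.17, SE 0.04, edgeR adjusted p = 0.0448) fell in KO, beside 1.07% of genes lower.

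Among other genes of translation, 21 mRNAs with pyrimidine tracts (elongation and initiation factors and relatives) had a median of -0.22 after 5-FU in WT, with 20 negative and 0 called, and of -0.05 in KO, with 12 negative and 0 called. Averaged over genotype and BMX-001, 1 of them fell after 5-FU. This was Pabpc1, the poly(A)-binding protein, with 3247 and 3041 CPM after 5-FU in WT, against 3919 and 4755 CPM in WT PBS, and 3333 and 3223 CPM after 5-FU in KO, against 4918 and 5455 CPM in KO PBS (averaged log2 fold change -0.54, SE 0.08, edgeR adjusted p = 0.00237). Its groups did not overlap in either genotype. Fau, which encodes the small subunit protein eS30 outside the naming rule, had 293 and 270.1 CPM after 5-FU in WT, against 382 and 396 CPM in WT PBS (-0.47, SE 0.12, edgeR adjusted p = 0.119), and was called in the 15-library fit (-0.47, SE 0.09, edgeR adjusted p = 0.00984).

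The 56 ribosome biogenesis factors had a median of -0.04 after 5-FU in WT (17 positive) and of 0.13 in KO (51 positive), with 0 called in each. Wdr12, a large subunit assembly factor, had 42.9 and 33.9 CPM after 5-FU in KO, against 29.4 and 29.8 CPM in KO PBS (0.38, SE 0.14, edgeR adjusted p = 0.388). The 78 mitochondrial ribosomal protein genes had a median of -0.15 after 5-FU in WT (64 negative) and of 0.12 in KO (69 positive), with 0 called in each. Of the 14 regulators of the pathway, Mtor, Myc and Larp1 among them, 0 were called and the medians were -0.05 in WT and -0.06 in KO. In the 15-library fit, members of these lists that fell after 5-FU in WT were 5 of the 21 tract mRNAs, 2 of the 56 biogenesis factors, 1 of the 78 mitochondrial ribosomal genes and 1 of the 14 regulators (the kinase Akt1, -0.33, SE 0.08, edgeR adjusted p = 0.0234), beside 3.74% of genes lower. The 19 members known from human Diamond-Blackfan anaemia were all negative after 5-FU in WT, as 76 of all 78 members were. These lists were drawn up from general knowledge.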

How the data were processed

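Total RNA of mouse bone marrow was sequenced in 16 libraries, 2 for each of 8 groups. The authors deposited whole-number counts per Ensembl gene. Per the submitters' processing notes, the genome build was GRCm39 and the tools included featureCounts, Salmon 1.4.0, Trim Galore 0.6.4, R 4.3.0, DESeq2 1.38.3 and FastQC 0.12.1. Those notes give no order of steps, and no source used here gives the strand or multi-mapping settings. Names, lengths and GC content came from GENCODE annotation on GRCm38, matched by gene ID, for 51880 genes. Members, lists and tests were chosen with earlier results of these data known.

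Genes were filtered with filterByExpr, scaled by TMM and fitted with edgeR 4.0.16 (limma 3.58.1, R 4.3.3) as 8 group means with the robust quasi-likelihood test. P-values were adjusted by Benjamini-Hochberg over all genes tested. DESeq2 1.42.0 was an alternative, as were other scalings, no filter, leaving out libraries, and an offset per library that removes GC and length trends (splines, 5 df). The splines were fitted on genes above a minimum mean level. The edgeR step was tested on simulated data. In each comparison the named members were those called (the 4 highest and 4 lowest where many were) or, with none called, the 3 of smallest p. Across groups they were the 5 with the highest CPM per kb, the 5 with the lowest CPM, the 5 with the widest range of group means, and the stalk proteins. One gene that this rule names is not reported here. Others are examples chosen after their values were seen. Same-numbered replicates were correlated above 0.1 in 6 of 28 pairs of groups, so they were not treated as pairs.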

Additional observations from a re-analysis of the deposited data

Results flagged for a closer look

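In 7 of the 32 named members every library moved one way in KO and the opposite way in WT when BMX-001 with 5-FU was set against 5-FU, and this difference was not tested. The value is the KO log2 difference minus the WT one. It was -0.50 for Rps27, whose mean level was 291 CPM after both drugs and 333 CPM after 5-FU in KO, and 333 CPM after both drugs and 270.4 CPM after 5-FU in WT. For Rpl37a it was -0.39, with 299 and 339 CPM in KO and 327 and 282 CPM in WT, in the same order. Rps13 had -0.36, Rplp2 had -0.35, Rpl8 had -0.34, Rps12 had -0.31 and Rps3a1 had -0.28. Over all 78 members 20 had this pattern (25.6%), lower in KO and higher in WT, as had 4.12% of all genes, and 6% of all genes but 0 members had the opposite one. All of these rest on the same 8 libraries, which move together across the members.

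Rpl13a was flagged in the same way for 5-FU against PBS. Its mean level was 29.3 CPM after 5-FU and 24.7 CPM in PBS in KO, and 24.7 CPM after 5-FU and 27.8 CPM in PBS in WT. The difference of 0.42 between these effects was tested as the interaction and did not pass (SE 0.20, edgeR adjusted p = 0.846). This pattern was seen in 1 of the 78 members (1.28%) and in 2.52% of all genes.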

How the results depend on the processing

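Of the values of named members under the alternatives, 795 kept their side of the threshold and 21 passed it where the full fit had not. None of these values was called in the full fit, so none could lose a call. Medians near 0 changed sign, as given here. Counts of members called were 0 in the full fit for all 10 comparisons. DESeq2 called 5 after 5-FU in WT (3.22% of all genes with an adjusted p), 1 for 5-FU averaged over genotype and BMX-001 (7.97%), and 1 for BMX-001 in KO (10.9%). With no filter on low counts 17 were called for BMX-001 in KO (21.8% of members and 10.7% of all genes). With library totals only, 1 was called for averaged 5-FU (11.9% of all genes), and the median fold changes were 0.04 for averaged 5-FU, -0.19 after 5-FU in WT, 0.19 after 5-FU in KO and -0.06 for BMX-001 in KO.

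With GC and length trends removed, the medians were -0.09 after 5-FU in WT, 0.10 for the interaction, -0.06 for BMX-001 in KO and 0.04 for both drugs against 5-FU in WT. Without KO BMX-001 replicate 1 as well, they were -0.09, 0.10, -0.02 and 0.04, with 1 member called after 5-FU in WT (0.853% of all genes), 3 for averaged 5-FU (7.41%) and 2 for KO against WT (1.93%). Leaving out each library in turn gave 0 to 26 calls after 5-FU in WT, 0 to 12 for averaged 5-FU, 0 to 19 for KO against WT averaged over treatments and 0 to 43 for BMX-001 in KO. The 26 calls came from leaving out KO BMX-001 replicate 1 (33.3% of members and 6.87% of all genes). The 12, 19 and 43 came from leaving out replicate 2, where the library that stood apart alone represents KO BMX-001. They are 15.4%, 24.4% and 55.1% of members, beside 22.7%, 22.1% and 44.6% of all genes. A choice made after seeing the data, to drop WT PBS replicate 1 with KO BMX-001 replicate 1, gave 10 calls after 5-FU in WT (8.2% of all genes). Medians ranged from -0.14 to 0.12 after 5-FU in KO, 0.16 to 0.43 for the interaction, -0.38 to -0.13 for BMX-001 in KO and -0.27 to -0.01 for both drugs against 5-FU in KO. The causes were not tested.

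With the replicate number as a block 0 members were called in each comparison, and the median after 5-FU in WT stayed at -0.30. With the block and the GC and length step together the medians were -0.09 after 5-FU in WT, 0.10 for the interaction, -0.06 for BMX-001 in KO and 0.04 for both drugs against 5-FU in WT. Pairs of libraries limit what can be told at these fold changes.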

Other observations

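Rpl39l, a paralog of Rpl39 known from the testis, lay under the minimum level with 0.220 CPM on average. It had 7 to 18 counts in each of the 8 libraries given 5-FU (97 in sum), against 0 to 7 counts in each of the 8 libraries without 5-FU (29 in sum). On the scale of normalised CPM the range was 0.197 to 0.453 CPM after 5-FU and 0 to 0.190 CPM without it. These ranges nearly met. The libraries at the inner ends, WT 5-FU replicate 1 and WT PBS replicate 2, had 7 counts each, so their order rests on the scaling. The KO PBS pair had 0 and 1 counts. This gene was chosen after its values were seen, and counts this low leave its level imprecise.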
